A study of Mus musculus with 24 samples.

Results

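The genes described here encode the subunits of the mitochondrial respiratory chain and of ATP synthase that are made from nuclear DNA. They were chosen by symbol alone: names beginning with Nduf followed by a, b, c, s or v (complex I), Sdha to Sdhd (complex II), Uqcr (complex III), Cox5 to Cox8 with a subunit letter (complex IV) and Atp5 (complex V). Of 21671 genes in the deposited table, 82 matched. Transcript level is given as RPKM, reads per kilobase of gene scaled to the library's read total, and 78 of the 82 reached 1 RPKM in 3 or more of 24 libraries. These 78 members comprised 37 genes of complex I, 4 of complex II, 8 of complex III, 12 of complex IV and 17 of complex V. The 4 genes below the limit were Cox6a2, a heart and skeletal muscle form, with a mean of 0.425 RPKM, and Cox6b2, Cox7b2 and Cox8c, forms known from testis, with means of 0.0749, 0.0430 and 0 RPKM. Just inside the limit were Cox8b, which reached 1 RPKM in 10 libraries, and Cox7a1, which did so in 20 of 24.

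The respiratory chain passes electrons from NADH (complex I) and succinate (complex II) through complex III to oxygen at complex IV. Complexes I, III and IV pump protons across the inner mitochondrial membrane, and ATP synthase, complex V, uses the return flow to make ATP. Complexes I, III, IV and V are built from nuclear and mitochondrial gene products, so both genomes must supply subunits together. Myc, a transcription factor that binds E-box sequences in promoters, is known for raising the expression of genes for mitochondrial function in growing cells.

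The study used 3T9 cells, immortalised mouse fibroblasts, infected with an empty vector (EV) or with vectors for 3 forms of MycER, which is Myc fused to the hormone-binding part of the oestrogen receptor. The forms were MycER-WT, MycER-HEA and MycER-RA, called WT, HEA and RA below. HEA changes residues that contact E-box bases, and RA changes residues that contact the DNA backbone. All groups, EV included, received OHT (4-hydroxytamoxifen, the ligand that activates the fusion) for 4 or 8 h, which gave 8 groups of 3 libraries of total RNA. Cells without OHT were not analysed here. A difference from EV that was there before OHT therefore cannot be told apart from an effect of the activated fusion. The cells kept their own Myc gene, and the labels do not say whether an infected population was a pool or a clone. The libraries of a group carry replicate numbers, but nothing says that they came from separate cultures. The p-values below therefore measure the spread between these libraries, which may be technical.

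Reads per library, recovered from the RPKM steps, ranged from 9818323 to 12788115. Esr1, whose hormone-binding part is in the fusion, had 0.099 to 0.385 RPKM in the EV libraries and 9.04 to 13.7 RPKM in the MycER libraries. Of 10 fibroblast markers, 9 averaged at least 1 RPKM, while 0 of 6 epithelial, 0 of 6 endothelial and 0 of 6 muscle markers did. In the macrophage list this held for Cd68 and Csf1r, and in the adipocyte list for Fabp4. WT 4 h replicate 3 stood apart: it had the lowest read total, and Neat1, a nuclear RNA, had 26.0 RPKM there against 47.6 to 98.3 in the other 23 libraries. Results that rest on that library are given with and without it.

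Promoter sequences are shown because the compared proteins differ in the residues that contact DNA. RefSeq promoters (build GRCm38.p6, 250 bases before to 50 after the start) were found for 67 of the 78 members, 73 promoters in all. The E-box letters CACGTG, which read the same on both strands, occurred in promoters of 7 of the 67 members (10.4%), against 8.09% of 27025 genes in the table. The 7 were Atp5sl, Atp5g1, Atp5g3, Atp5f1, Atp5l, Ndufa7 and Ndufv1. CATGCGC on either strand, part of the site of the nuclear respiratory factor NRF1, occurred in 13 members (19.4%, against 4.41% of all genes). CCGGAAG on either strand, a site of ETS factors such as GABP, occurred in 16 (23.9%, against 9.93%). CCAAT on either strand, a site of NF-Y, occurred in 29 (43.3%, against 41.1%). The 27025 genes include ones outside the 12268 tested in these cells, while the members are all expressed. Shares among the tested genes alone were not computed. A match is a description of these letters, not of a bound site. The sequences below are those of 5 members that differed between WT and EV and of Ndufb10, the member with the smallest p in HEA, chosen after its values were seen. They run from 5′ to 3′ on the gene's strand, with every match of the 4 motifs in capitals on either strand, so that ATTGG is a CCAAT match of the other strand. In Atp5g1 CCAAT matches of both strands overlap.
Atp5sl: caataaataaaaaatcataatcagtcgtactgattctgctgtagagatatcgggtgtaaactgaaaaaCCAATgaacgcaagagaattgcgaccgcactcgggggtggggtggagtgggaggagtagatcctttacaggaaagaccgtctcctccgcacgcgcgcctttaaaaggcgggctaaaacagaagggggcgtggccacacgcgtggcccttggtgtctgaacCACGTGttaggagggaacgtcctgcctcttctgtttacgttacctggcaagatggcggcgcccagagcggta
Atp5g1: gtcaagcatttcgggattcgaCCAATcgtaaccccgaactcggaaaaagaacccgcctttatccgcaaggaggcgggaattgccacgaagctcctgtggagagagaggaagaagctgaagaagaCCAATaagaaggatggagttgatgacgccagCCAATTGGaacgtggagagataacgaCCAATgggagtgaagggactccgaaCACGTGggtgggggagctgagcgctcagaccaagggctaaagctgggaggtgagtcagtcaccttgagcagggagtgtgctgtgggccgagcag
Cox8a: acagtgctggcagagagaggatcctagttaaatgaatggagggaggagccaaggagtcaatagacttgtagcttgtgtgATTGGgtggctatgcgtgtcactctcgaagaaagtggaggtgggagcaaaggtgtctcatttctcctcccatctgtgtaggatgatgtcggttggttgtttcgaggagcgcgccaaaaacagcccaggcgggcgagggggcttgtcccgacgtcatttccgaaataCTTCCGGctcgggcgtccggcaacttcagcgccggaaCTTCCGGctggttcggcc
Ndufv3: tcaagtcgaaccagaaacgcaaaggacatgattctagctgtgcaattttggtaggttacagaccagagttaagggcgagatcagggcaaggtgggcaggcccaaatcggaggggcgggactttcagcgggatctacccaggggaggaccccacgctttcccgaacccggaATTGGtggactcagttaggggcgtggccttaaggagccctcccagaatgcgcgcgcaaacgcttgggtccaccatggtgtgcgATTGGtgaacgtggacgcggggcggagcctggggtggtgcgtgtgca
Atp5s: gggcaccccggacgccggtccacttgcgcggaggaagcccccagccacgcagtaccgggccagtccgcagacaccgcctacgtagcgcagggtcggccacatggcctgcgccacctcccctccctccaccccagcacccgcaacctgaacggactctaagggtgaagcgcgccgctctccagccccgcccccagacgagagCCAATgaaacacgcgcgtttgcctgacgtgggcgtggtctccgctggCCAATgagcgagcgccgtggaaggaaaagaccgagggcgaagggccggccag
Ndufb10: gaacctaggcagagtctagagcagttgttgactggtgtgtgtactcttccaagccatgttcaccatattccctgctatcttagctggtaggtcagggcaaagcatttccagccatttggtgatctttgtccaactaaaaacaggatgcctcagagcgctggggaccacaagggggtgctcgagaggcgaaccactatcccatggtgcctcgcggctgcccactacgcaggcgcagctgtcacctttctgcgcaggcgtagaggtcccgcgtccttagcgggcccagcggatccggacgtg
Atp5sl lies at chr7:25619164-25619463 on the plus strand, with an E-box starting at position -22 from the transcription start. Atp5g1 lies at chr11:96075582-96075881 on the minus strand, with an E-box at -44 and several CCAAT matches. Cox8a lies at chr19:7217567-7217866 on the minus strand and holds ETS and CCAAT matches. Ndufv3 at chr17:31519865-31520164 and Atp5s at chr12:69724695-69724994, both on the plus strand, hold CCAAT matches. Ndufb10 at chr17:24724374-24724673, on the minus strand, holds none of the 4 motifs in this window. Of the 7 members that rose in WT at 4 h, 6 had a promoter in the table and 2 of these held an E-box, Atp5sl and Atp5g1. Of the 9 that fell in HEA at 4 h, 8 had a promoter, and the same 2 genes held the E-box. Among members not called at 4 h, 5 of 61 with a promoter held an E-box in WT and 5 of 57 in HEA. At 8 h the only E-box genes called were Atp5sl in WT and Atp5g1 in HEA. The Atp5g1 call in WT at 4 h was lost under 8 of 19 alternatives, and the Atp5sl call in HEA at 4 h under 10 of 19. Whether the E-box had a part in these calls was not tested.

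Most members were abundant transcripts. The median of their mean RPKM was 51.1, against 16.7 over all 12268 tested genes, and 69 of 78 averaged at least 20 RPKM. Complex V had the highest median, 65.1 RPKM, followed by complex III with 61.8, complex IV with 57.5, complex II with 44.9 and complex I with 42.4. Within complex V the level ran from 3.07 RPKM for Atp5s to 118 for Atp5b, the catalytic beta subunit. In complex IV it ran from 0.964 for Cox8b to 100.4 for Cox6a1, in complex I from 4.13 for Ndufa4l2 to 76.7 for Ndufb9, in complex III from 39.9 for Uqcrc2 to 71.8 for Uqcrc1, and in complex II from 35.9 for Sdhb to 75.3 for Sdhd. The range was narrowest in complexes II and III, but these hold only 4 and 8 members, and a range widens with the number of genes.

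Core subunits of one complex did not have one RPKM. Levels of different genes, here and in the paragraphs before and after, depend on the gene lengths used for RPKM. The highest mean of any tested gene was 188 RPKM. The part of gene length and read density in differences between genes was not tested. In complex I, Ndufv1, which binds NADH and the flavin, averaged 69.3 RPKM, and its partner Ndufv2 averaged 26.5. Ndufs1, which carries iron-sulfur clusters, averaged 23.5 RPKM, while Ndufs3, Ndufs7 and Ndufs8 lay between 52.6 and 53.4. In complex II the flavoprotein Sdha averaged 50.6, the iron-sulfur subunit Sdhb 35.9, and the membrane anchors Sdhc and Sdhd 39.2 and 75.3. The Rieske protein gene Uqcrfs1 averaged 65.2 RPKM. Cox5a and Cox5b averaged 53.4 and 58.4. In ATP synthase the alpha subunit gene Atp5a1 averaged 84.1 and the gamma subunit gene Atp5c1 52.5.

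Where a subunit has tissue forms, the widely expressed form led. Cox6a1 averaged 100.4 RPKM and its muscle form Cox6a2 0.425. Cox8a averaged 85.2 and Cox8b 0.964, and Cox7a2 averaged 46.4 against 1.82 for the muscle form Cox7a1. Cox7a2l, which encodes a factor that joins complexes III and IV into supercomplexes, averaged 81.1. Cox6b1 averaged 56.5 and Cox6b2 0.0749. Ndufa4, now placed in complex IV despite its name, averaged 71.5 RPKM against 4.13 for its low-oxygen form Ndufa4l2. The 3 genes for the c subunit, which encode the same mature protein, were all abundant, with 62.7 RPKM for Atp5g1, 79.4 for Atp5g2 and 90.9 for Atp5g3. Reads shared between such near copies could not be assigned here.

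**Figure D1:**
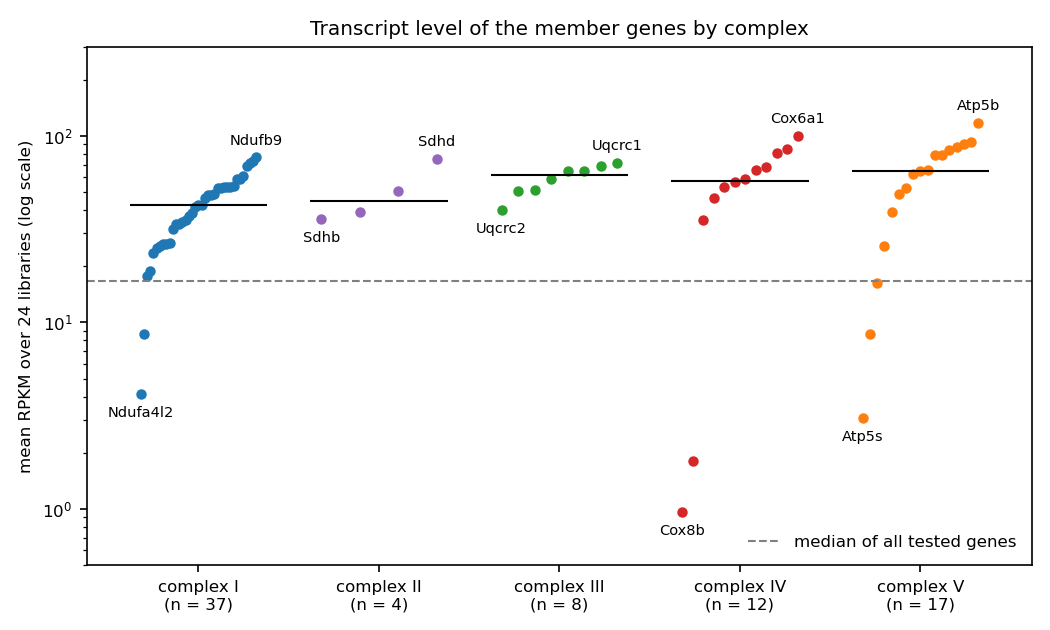
Mean RPKM over 24 libraries (log axis) of each of the 78 members, by complex; points are genes, bars are complex medians, and the dashed line is the median of all tested genes (16.7 RPKM). Most members lie above 20 RPKM, and the few low ones are tissue forms such as Cox8b (0.964 RPKM) or accessory genes such as Atp5s (3.07 RPKM).

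Each member was compared between groups on log2(RPKM + 0.5) with limma's moderated test, Benjamini-Hochberg adjusted over all 12268 tested genes, and called at an adjusted p under 0.05. Differences below are log2 values on that scale, which understates changes of low genes, and ± gives the SE. The comparisons with EV set the cells of each MycER form against EV cells, and those between forms set cells with different DNA-contact residues against each other. Neither can separate the form from other differences between the infected populations. WT, HEA and RA at one time share the same EV libraries.

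In WT at 4 h most members lay slightly above EV, and 7 passed the test, all higher. Over all tested genes, 26.1% were called, 11.6% higher and 14.4% lower. With cyclic loess the split of the members was 7 and 1, and with median centring 19 and 0. The members' median difference was 0.13, against -0.01 over all tested genes, and 72 of 78 were above 0. The 7 were Atp5sl, Atp5c1, Cox8a, Uqcr11, Ndufa4, Cox6c and Atp5g1, of which 3 have complex V names, 2 belong to complex IV, 1 to complex III and 1 is counted here in complex I. Outside Atp5sl the rises were small, from 0.16 for Cox6c to 0.27 for Uqcr11.

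Atp5sl (also named Dmac2), a factor known for assembly of complex I rather than a core ATP synthase subunit, rose most. It had 6.27, 6.59 and 7.61 RPKM in the EV libraries at 4 h and 12.2, 9.99 and 14.7 in WT. At 8 h it had 8.04, 8.09 and 8.16 RPKM in EV and 16.3, 13.9 and 11.9 in WT. At both times every WT library lay above every EV library. The difference was 0.79 ± 0.14 at 4 h (limma adjusted p = 0.00044) and 0.75 ± 0.14 at 8 h (limma adjusted p = 0.000414), or 1.73-fold and 1.68-fold. The call held under all 19 alternatives tried at each time, and was 0.66 ± 0.15 without WT 4 h replicate 3.

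The gamma subunit gene Atp5c1 had 51.0, 46.7 and 50.9 RPKM in EV and 54.4, 56.7 and 64.1 in WT at 4 h, a difference of 0.23 ± 0.061 (limma adjusted p = 0.00769). Uqcr11, a small accessory subunit gene of complex III, had 50.1, 49.2 and 49.4 RPKM in EV and 57.9, 56.3 and 66.4 in WT, a difference of 0.27 ± 0.082 (limma adjusted p = 0.0183). Cox8a had 82.2, 77.9 and 79.2 RPKM in EV and 87.7, 90.7 and 102.9 in WT, a difference of 0.23 ± 0.065 (limma adjusted p = 0.0134). For all 3 genes the groups did not overlap, and replicate 3 was the highest WT library. Atp5g1, with 0.19 ± 0.0635, Ndufa4, with 0.24 ± 0.072, and Cox6c, with 0.16 ± 0.053, passed at limma adjusted p = 0.0330, 0.0203 and 0.0277.

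The calls of these small rises, Atp5sl aside, rested on WT 4 h replicate 3. Without that library, which leaves WT replicates 1 and 2, the 6 differences were smaller, from 0.11 for Cox6c to 0.20 for Uqcr11. Without it, 1 member passed, Atp5sl, beside 7.49% of all tested genes called higher, and the other 6 had limma adjusted p from 0.0655 for Atp5c1 to 0.212 for Atp5g1. The members' median difference was then 0.05, with 57 of 78 above 0. Atp5g1 was also lost without EV 4 h replicate 2 (0.0531) or 3 (0.138), Cox6c without EV 4 h replicate 1 (0.133) or WT 4 h replicate 2 (0.0552), and Ndufa4 without EV 4 h replicate 2 (0.0889). Without WT 4 h replicate 1 the count was 17. With the library total as a covariate 2 members were higher, and without the 3 libraries farthest from their groups (EV 4 h replicate 2, WT 4 h replicate 3 and WT 8 h replicate 3) also 2. Library totals ran from 9818323 to 10544237 reads in WT and from 10221642 to 11863039 in EV at 4 h, and the mean recovered reads of 34 of the 78 members were higher in WT than in EV. Atp5c1 averaged 995 recovered reads in EV against 1060 in WT, and Atp5sl averaged 184 against 300.7. Of 6 nuclear noncoding transcripts, 2 rose and 0 fell in WT at 4 h, and 3 rose and 0 fell at 8 h. Of all 12268 tested genes, 3196 were called at 4 h and 4324 at 8 h. These transcripts did not move together: at 4 h Malat1 averaged 143.9 RPKM in EV and 141.8 in WT, and Airn 3.04 and 9.75. What they say of RNA composition was not tested.

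The members had many reads per base of gene, 0.559 at the median and 1.28 at most. Of the 78, 47 (60.3%) were above 0.5 reads per base, against 14.8% of all tested genes. Among tested genes of 500 bases or more, no gene exceeded 1.91. How duplicate reads were treated is unknown here, and the part of read density and of library total in these small differences was not tested.

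**Figure D2:**
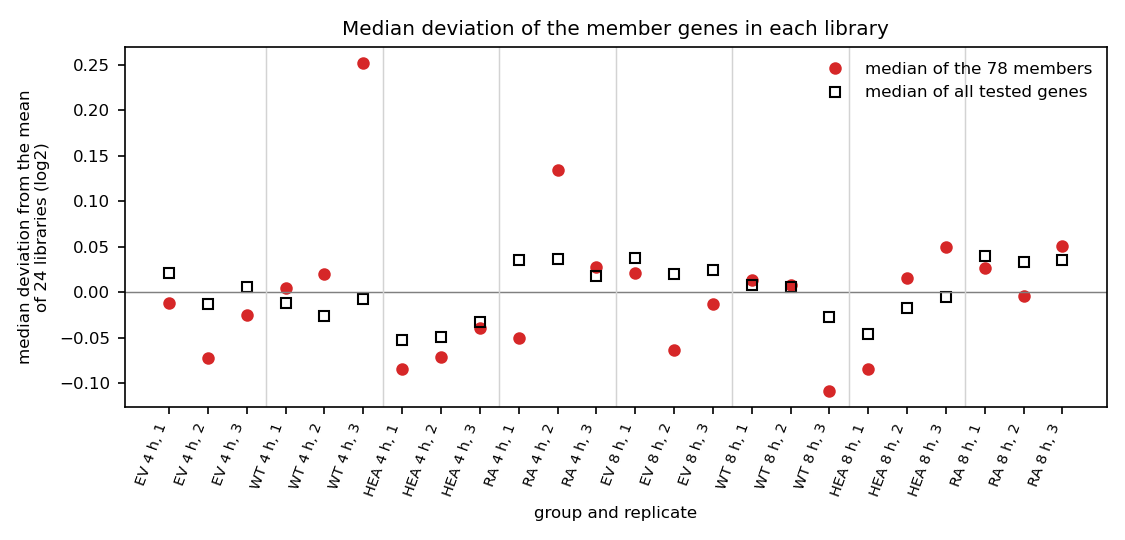
Median deviation of the member genes from their mean over 24 libraries (log2), for each library in the order of groups and replicates (red circles), and the same for all tested genes (open squares). WT 4 h replicate 3 lies at 0.25, and the other 23 libraries lie between -0.11 and 0.13.

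The height of WT 4 h replicate 3 ran through all complexes. The members' median deviation from their mean over all libraries was 0.25 there, with 0.24 for complex I, 0.26 for complex II, 0.27 for complex III, 0.25 for complex IV and 0.23 for complex V. The median of all tested genes in that library deviated by -0.01. Of the 78 members, 46 had their highest deviation from a group mean in that library. The next highest library median was 0.13, in RA 4 h replicate 2.

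At 8 h WT and EV were closer. The members' median difference was -0.00, against -0.02 over all tested genes, with 38 of 78 above 0. Of the members 1 rose, Atp5sl, and 3 fell, Ndufv3 and Atp5s among them, while 35.2% of all tested genes were called, 15.2% higher and 20.1% lower. With median centring of the libraries the split was 5 higher and 2 lower, and with cyclic loess 4 and 4, with quantile normalisation 4 and 7, and with voom 3 and 2. Without EV 8 h replicate 3 or WT 8 h replicate 3 the split was 1 and 1, without EV 8 h replicate 2 it was 3 and 3, and without EV 8 h replicate 1 or WT 8 h replicate 2 it was 2 and 2. The complex medians ran from -0.09 in complex II to 0.03 in complexes IV and V.

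Ndufv3, a small accessory subunit of the NADH-binding module of complex I, had 19.7, 17.4 and 19.3 RPKM in EV and 12.8, 15.04 and 12.1 in WT at 8 h, with no overlap. Its difference was -0.49 ± 0.12 (limma adjusted p = 0.00318), a call that held under all alternatives. At 4 h, where it did not pass, it had 18.9, 15.7 and 17.6 RPKM in EV and 14.9, 12.9 and 14.9 in WT, a difference of -0.28 ± 0.12 (limma adjusted p = 0.0889). The WT libraries thus also lay below the EV libraries at 4 h.

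Atp5s (also named Dmac2l), known as coupling factor B and one of the lowest members, had 2.94, 2.93 and 3.40 RPKM in EV and 2.09, 1.96 and 1.56 in WT at 8 h. The difference was -0.60 ± 0.18 (limma adjusted p = 0.0129), lost without EV 8 h replicate 3 (0.0554) or WT 8 h replicate 3 (0.0610). At 4 h the WT libraries, with 2.39, 2.34 and 3.28 RPKM, overlapped EV, with 2.92, 1.97 and 3.06.

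Of the 78 members, 25 overlap another gene in the RefSeq annotation. The strand setting of the counting is not given, and the part of such neighbours' reads was not tested.

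**Figure D3:**
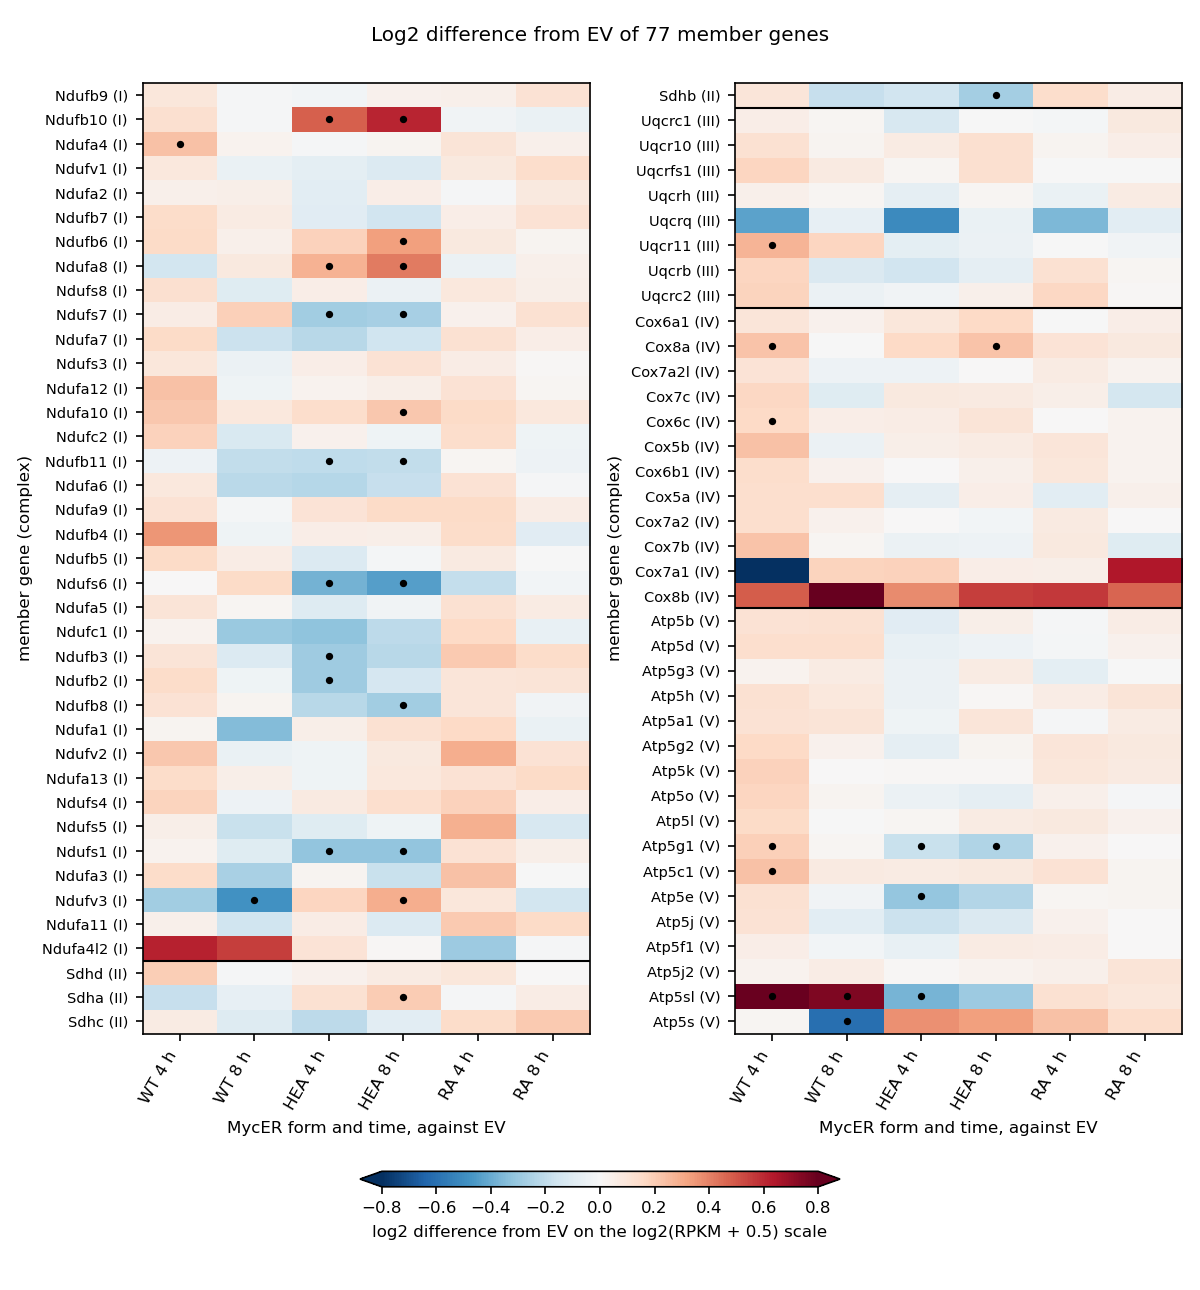
Log2 differences from EV of 77 of the 78 members in WT, HEA and RA at 4 and 8 h, by complex and falling level; blue is lower, red is higher (colours saturate at 0.8), and dots mark members called at an adjusted p under 0.05. Under HEA the dots number 11 at 4 h and 14 at 8 h, of which 8 and 10 are in complex I (37 members), and there are none under RA.

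In HEA 11 members passed at 4 h and 14 at 8 h. At 4 h 2 members rose and 9 fell, while 43.2% of all tested genes were called, 17.7% higher and 25.5% lower. At 8 h 7 rose and 7 fell, beside 47.7% of all tested genes, 20.2% higher and 27.5% lower. The share of members called was thus below that of all tested genes at both times. Of these calls, 8 at 4 h and 10 at 8 h were in complex I, which holds 37 of the 78 members. The members' median differences were -0.04 and 0.02, against -0.06 and -0.05 over all tested genes. The split between directions depended on scaling: with cyclic loess it was 10 higher and 3 lower at 4 h and 17 and 6 at 8 h, with quantile normalisation 8 and 6, and 16 and 6, with median centring 4 and 4, and 14 and 3, and with voom 5 and 2, and 8 and 4.

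Ndufb10, a subunit of the membrane arm of complex I, rose most clearly. At 4 h it had 63.6, 62.2 and 65.1 RPKM in EV and 89.2, 84.3 and 92.7 in HEA. At 8 h it had 64.7, 69.8 and 67.4 in EV and 100.04, 104.1 and 105.002 in HEA. All 6 HEA libraries lay above all 18 others, where WT and RA ranged from 59.8 to 73.8 RPKM. The difference was 0.48 ± 0.056 at 4 h (limma adjusted p = 1.29e-06) and 0.61 ± 0.056 at 8 h (limma adjusted p = 3.9e-08), or 1.39-fold and 1.53-fold. In recovered reads the means were 451 in EV and 615 in HEA at 4 h, and 499 and 682 at 8 h.

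Ndufa8, a subunit of the intermembrane-space side of complex I, also rose at both times. At 4 h it had 47.9, 55.8 and 48.7 RPKM in EV and 64.4, 54.9 and 66.3 in HEA, so 1 HEA library lay within the EV range. At 8 h the EV libraries had 54.4, 48.0 and 50.6 RPKM and the HEA libraries 64.4, 69.3 and 70.8, with no overlap. The differences were 0.28 ± 0.087 (limma adjusted p = 0.0128) and 0.42 ± 0.087 (limma adjusted p = 0.000558). At 4 h the call was lost without EV replicate 1 (0.0599) or 3 (0.0524) or HEA replicate 1 (0.0522) or 3 (0.0611).

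Of the members that fell in HEA at both times, Ndufs6, Ndufs1 and Ndufs7 had the smallest p at 4 h. Ndufs6, a zinc-binding subunit of the matrix arm, had 38.9, 39.0 and 39.2 RPKM in EV and 30.2, 27.9 and 31.8 in HEA at 4 h, and 44.9, 39.3 and 37.985 against 25.0, 32.5 and 32.5 at 8 h. Its difference was -0.38 ± 0.091 (limma adjusted p = 0.00221) and -0.44 ± 0.091 (limma adjusted p = 0.000512). Ndufs1, the largest subunit of the matrix arm, had 25.2, 23.3 and 25.2 RPKM in EV and 18.6, 19.0 and 21.4 in HEA at 4 h, and 23.9, 24.3 and 25.0 against 18.2, 20.2 and 20.2 at 8 h. Its difference was -0.32 ± 0.084 at each time (limma adjusted p = 0.00469 and 0.00424).

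For Ndufs6 and Ndufs1, HEA and EV did not overlap at either time. Ndufs7, which holds the last cluster before the quinone, had 54.6, 60.4 and 51.6 RPKM in EV and 45.4, 45.0 and 46.7 in HEA at 4 h, and 53.9, 46.0 and 54.5 against 40.4, 42.2 and 45.1 at 8 h. Its difference was -0.28 ± 0.077 (limma adjusted p = 0.00672) and -0.27 ± 0.077 (limma adjusted p = 0.00732), lost with voom at both times (0.0514 and 0.0695) and with median centring at 8 h (0.0682).

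Of the c subunit genes, Atp5g1 fell in HEA, with 65.3, 64.1 and 59.7 RPKM in EV and 54.4, 58.6 and 54.0 in HEA at 4 h. At 8 h it had 66.9, 60.5 and 64.0 in EV and 51.6, 53.5 and 56.6 in HEA, again with no overlap. The difference was -0.18 ± 0.0635 at 4 h (limma adjusted p = 0.0281) and -0.24 ± 0.0635 at 8 h (limma adjusted p = 0.00394). The 8 h call was lost with median centring (0.0626), and the 4 h call with centring (0.121), cyclic loess (0.0747) or voom (0.169), or without EV replicate 1 (0.103) or 2 (0.0713) or HEA replicate 1 (0.0844) or 3 (0.0847). Atp5g2 and Atp5g3 did not pass in HEA at either time. Whether the 3 genes differed in their response was not tested.

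Of the 11 members called in HEA at 4 h, 7 were called in the same direction at 8 h (63.6% of the 4 h calls and 50% of the 14 at 8 h), and 0 in the opposite one. They were Ndufb10 and Ndufa8, higher, and Ndufs6, Ndufs1, Ndufs7, Ndufb11 and Atp5g1, lower. The 2 times share no libraries. Of all 12268 tested genes, 5303 were called in HEA at 4 h and 5853 at 8 h. How many of them were called in the same direction at both times was not computed. The overlap is therefore not shown to be particular to the members. Called at 4 h alone were Ndufb2, Atp5e, Ndufb3 and Atp5sl, with differences from -0.28 to -0.37. Called at 8 h alone were Ndufb6 (0.33 ± 0.077), Cox8a, Sdha, Ndufa10 and Ndufv3, higher, and Sdhb (-0.27 ± 0.074) and Ndufb8, lower. In complex II the flavoprotein gene Sdha and the iron-sulfur gene Sdhb thus changed in opposite directions at 8 h, with Sdha at 0.20 ± 0.0687. The calls that held under every alternative were Ndufb10, Ndufs1 and Ndufs6 at 4 h, and these 3 with Ndufa8, Ndufb6, Cox8a and Sdhb at 8 h. At 4 h Ndufb2 was lost without EV replicate 1 (0.102) or HEA replicate 1 (0.124), Atp5e without EV replicate 2 (0.162) or HEA replicate 1 (0.0877) or 2 (0.0967), and Atp5sl without EV replicate 2 (0.0617) or 3 (0.164) or HEA replicate 2 (0.299). Ndufb3 and Ndufb11 were each lost without EV replicate 1 or 3 or HEA replicate 1 or 2, with limma adjusted p from 0.0804 to 0.171. At 8 h Sdha was lost without EV replicate 2 (0.0655) or HEA replicate 2 (0.0607) or 3 (0.0546). Ndufa10 was lost without EV replicate 1 or 2 or any HEA replicate, Ndufv3 without any EV replicate or HEA replicate 2 or 3, and Ndufb8 and Ndufb11 without EV replicate 1 or 3 or HEA replicate 1 or 2, with limma adjusted p from 0.0506 to 0.230. Without 1 library the number called ranged from 5 (HEA 4 h replicate 1 left out) to 11 at 4 h, where leaving out EV 4 h replicate 1 gave 6 and EV 4 h replicate 3 gave 7. At 8 h it ranged from 9 (HEA 8 h replicate 2 left out) to 11.

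Transcripts of the nucleus also moved with HEA. Of the same 6 nuclear noncoding transcripts, 2 rose and 1 fell in HEA at 4 h and 5 rose and 1 fell at 8 h. Among them was Neat1, with a difference of 0.61 at 8 h. Of all 12268 tested genes, 5303 were called at 4 h and 5853 at 8 h. The sum of fibroblast markers lay between 768 and 847 RPKM in HEA and between 746 and 855 in EV at 4 h. At 8 h the ranges did not overlap, with 753 to 818 RPKM in HEA and 717 to 731 in EV. The sum of the macrophage list, 8.36 to 12.7 RPKM in HEA and 8.93 to 12.7 in EV at 4 h, was lower in every HEA library at 8 h, with 9.71 to 11.1 RPKM against 12.0 to 16.6 in EV. Their part in the members' differences was not tested.

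**Figure D4:**
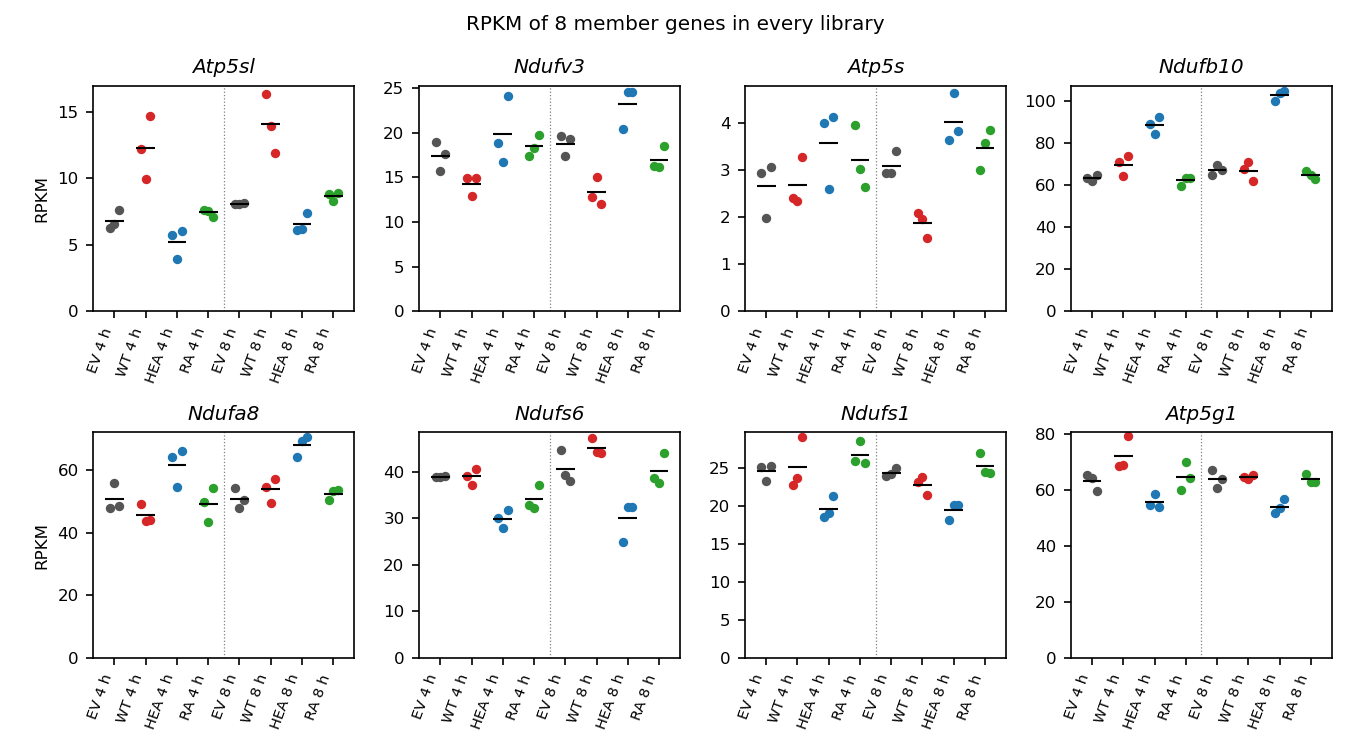
RPKM of 8 members in each of the 24 libraries, by group, with the group mean as a bar (EV grey, WT red, HEA blue, RA green; 3 libraries a group). Atp5sl is highest in WT (9.99 to 16.3 RPKM) and Ndufb10 is highest in HEA (84.3 to 105.002 RPKM).

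In RA no member passed against EV. With limma the count was 0 at 4 h, beside 5.31% of all tested genes called (2.58% higher and 2.73% lower), and 0 at 8 h, beside 2.78% (1.49% higher and 1.29% lower). At an unadjusted p under 0.05, 3 members were higher and 1 lower at 4 h, and 2 higher and 0 lower at 8 h. With voom the count was 0 at both times. The members' median differences were 0.08 and 0.04, against 0.02 and 0.00 over all tested genes. The 2 genes that stood out in WT and HEA had values near EV: Atp5sl had 7.63, 7.57 and 7.13 RPKM at 4 h and 8.79, 8.33 and 8.91 at 8 h, and Ndufb10 had 59.8, 63.5 and 63.4 and then 66.8, 65.0006 and 63.0. The 95% interval of the difference ran from -0.18 to 0.42 at 4 h and from -0.21 to 0.39 at 8 h for Atp5sl, and from -0.15 to 0.09 and from -0.17 to 0.07 for Ndufb10.

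The intervals bound the differences in RPKM of most members, a measure relative to the library total. They do not bound changes in transcript amount, since how duplicate reads were treated is unknown here. A bound of 0.5 on the log2 scale corresponds to 1.41-fold. The 95% interval of the difference from EV lay within that bound in both directions for 71 members in WT at 4 h and 68 at 8 h. For HEA it did so for 67 and 66 members, and for RA for 68 and 73. At the median the interval reached 0.17 to each side. Outside the bound in all 6 comparisons were Cox7a1, Cox8b, Ndufa4l2 and Uqcrq, of which the first 3 are low. Ndufa4l2 had 2.89, 6.20 and 2.84 RPKM in EV and 7.39, 6.36 and 4.55 in WT at 4 h, so the groups overlapped, and its difference of 0.62 ± 0.29 did not pass. It overlaps Shmt2, which rose in WT by 0.17 at both times.

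Set against HEA, WT had more members higher at 4 h. The count was 30 higher and 5 lower, beside 49.5% of all tested genes, 26.9% higher and 22.6% lower. With cyclic loess it was 14 and 7, with voom 18 and 5, and without WT 4 h replicate 3 it was 11 and 4, beside 21.2% and 18.3%. Of the 30, 13 were in complex I and 10 in complex V. The members with the smallest p were Atp5sl (1.16 ± 0.14, limma adjusted p = 1.49e-06), Ndufb10 (-0.35 ± 0.056, limma adjusted p = 4.21e-05), Atp5g1 (0.37 ± 0.0635, limma adjusted p = 8.06e-05) and Ndufa8 (-0.43 ± 0.087, limma adjusted p = 0.000405). These 4 were among 12 of the 35 that were called under every alternative.

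At 8 h the difference between WT and HEA was even in direction. The count was 8 higher and 9 lower, beside 48% of all tested genes, 24.6% higher and 23.4% lower, and 7 and 15 with cyclic loess. Ndufb10 differed by -0.62 ± 0.056 (limma adjusted p = 1.44e-08), Atp5sl by 1.04 ± 0.14 (limma adjusted p = 4.8e-06), Ndufv3 by -0.78 ± 0.12 (limma adjusted p = 1.47e-05) and Ndufs6 by 0.59 ± 0.091 (limma adjusted p = 1.63e-05). For Ndufv3 the WT libraries lay below EV and the HEA libraries, with 20.4, 24.6 and 24.6 RPKM, above it. For Ndufs6 the WT libraries had 47.4, 44.2 and 44.1 RPKM, 2 of them within the EV range, and the HEA libraries lay below EV. These 4 calls held under every alternative.

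Between WT and RA fewer members differed. At 4 h 6 were higher and 2 lower in WT, beside 34.8% of all tested genes, 15% higher and 19.9% lower. At 8 h 1 was higher and 6 lower, beside 41.8%, 17.3% higher and 24.4% lower. With median centring the splits were 13 and 2, and 3 and 5, and with cyclic loess 3 and 2, and 3 and 12. Atp5sl was higher in WT at both times, by 0.67 ± 0.14 (limma adjusted p = 0.00117) and 0.66 ± 0.14 (limma adjusted p = 0.00105), and held under every alternative. Also at 4 h, Uqcr11 differed by 0.28 ± 0.082, Ndufv3 by -0.37 ± 0.12 and Ndufa4l2 by 0.91 ± 0.29. The Uqcr11 call was lost without WT 4 h replicate 3 (0.0767) or RA 4 h replicate 1 (0.0723), that of Ndufv3 without WT 4 h replicate 2 (0.0899) or RA 4 h replicate 3 (0.0783), and that of Ndufa4l2 without WT 4 h replicate 1 (0.0805) or 2 (0.0574) or RA 4 h replicate 3 (0.0926). At 8 h Atp5s was lower in WT, with a difference of -0.75 ± 0.18 (limma adjusted p = 0.00226) that held under every alternative. Sdhb differed by -0.24 ± 0.074, a call lost without RA 8 h replicate 1 (0.0657). Without 1 library the 4 h count ranged from 3 (RA 4 h replicate 3 left out) to 13 (RA 4 h replicate 2), with 4 without WT 4 h replicate 3 or RA 4 h replicate 1. The 8 h count fell to 4 without RA 8 h replicate 1.

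Time on OHT changed few members. Between 8 and 4 h the limma count was 0 in EV (0.0245% of all tested genes), with 0 members at an unadjusted p under 0.05 and 0 with voom. In RA it was 0 (0.22% of all tested genes), with 1 member, Ndufs6, at an unadjusted p under 0.05 and 0 with voom. In WT 0 rose and 3 fell, beside 8.46% of all tested genes, 4.46% higher and 4% lower, among them Cox8a (-0.25 ± 0.065) and Ndufa7 (-0.32 ± 0.094). Without WT 4 h replicate 3, and likewise without WT 8 h replicate 3, 0 members passed, with limma adjusted p of 0.133 and 0.102 for Cox8a and 0.235 and 0.151 for Ndufa7. The Ndufa7 call was also lost without WT 8 h replicate 1 (0.0838). Without WT 4 h replicate 1 the count was 7. In HEA 1 rose, Ndufb10, by 0.22 ± 0.056 (limma adjusted p = 0.0399), beside 3.33% of all tested genes, 1.26% higher and 2.08% lower. That call was lost without HEA 4 h replicate 1 (0.0737) or 2 (0.218) or HEA 8 h replicate 2 (0.14) or 3 (0.156).

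The differences between the 8 h and 4 h effects, each against its own EV, were also tested. With limma and with voom 0 members passed for WT, HEA or RA. At an unadjusted p under 0.05 there were 1 higher and 7 lower for WT, 0 for HEA and 1 lower for RA. Of all tested genes 0.0163% passed for WT, 0.0163% for HEA and 0% for RA. For Atp5sl in WT the effects differed by -0.04 ± 0.20, with a 95% interval from -0.47 to 0.38. For Ndufb10 in HEA they differed by 0.13 ± 0.080, with an interval from -0.03 to 0.30.

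Libraries of one group agreed closely in most members. The median SD within groups was 0.10 on the log2 scale. Among the 69 members of at least 20 RPKM it was 0.0997, against 0.108 for the 5335 tested genes at that level. The smallest was 0.0406, for Atp5g3, and the largest 0.582, for Cox8b. Uqcrq, a small complex III subunit gene, had the widest spread among well-expressed members. It was low in HEA 4 h replicate 2 (24.2 RPKM), RA 4 h replicate 2 (28.9) and WT 4 h replicate 3 (34.7), and between 51.6 and 70.01 RPKM in the other libraries.

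Genes that serve the same complexes were read from lists. Of 48 measured assembly factors, which build the complexes without staying in them, 12 rose and 0 fell in WT at 4 h and 10 rose and 4 fell at 8 h, or 17 and 2 at 8 h with cyclic loess. These are 25% and 0% of the list at 4 h, beside 11.6% and 14.4% of all tested genes, and 20.8% and 8.33% at 8 h, beside 15.2% and 20.1%. Their median differences were 0.19 and 0.08, against -0.01 and -0.02 over all tested genes. Without WT 4 h replicate 3, 6 rose and 1 fell at 4 h. At 8 h the largest changes in WT were rises of the complex I factors Ndufaf6 (0.64) and Ecsit (0.58) and falls of Uqcc3 (-0.59), a complex III factor, and Tmem126b (-0.59), a complex I factor. In HEA 8 rose and 13 fell at 4 h and 9 rose and 14 fell at 8 h, or 11 and 11, and 12 and 9, with cyclic loess. These shares, 16.7% and 27.1% at 4 h and 18.8% and 29.2% at 8 h, are near those of all tested genes (17.7% and 25.5%, and 20.2% and 27.5%). Among them Ndufaf3 (1.18), Sdhaf1 (0.96) and Bcs1l (0.83) rose at 8 h and Ndufaf4 (-1.18) fell. Ndufaf4 averaged 22.5 RPKM in EV, 30.9 in WT and 9.73 in HEA at 8 h. In RA 2 rose at 4 h and 0 at 8 h, and 0 fell.

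Of 17 measured regulators of mitochondrial gene expression, 6 (35.3%) rose in WT at 4 h and 8 (47.1%) at 8 h, beside 11.6% and 15.2% of all tested genes called higher, and 0 fell, beside 14.4% and 20.1% called lower. Their median differences were 0.19 and 0.24. Members that did not pass included values below 0, such as Gabpb1, a GABP subunit, with -0.15 at 4 h and -0.18 at 8 h. Without WT 4 h replicate 3, 5 rose and 0 fell at 4 h. The counts higher and lower were alike in direction with cyclic loess (9 and 0 at both times), median centring (8 and 0, and 10 and 0) and voom (7 and 0, and 10 and 0). The largest rises at 8 h were those of Ppargc1b, a coactivator of mitochondrial genes, with 2.08, and Polg2, a subunit of the mitochondrial DNA polymerase, with 0.82. Ppargc1b averaged 0.0994 RPKM in EV and 2.12 in WT at 8 h. Its group means in EV, HEA and RA ran from 0.0994 to 0.22 RPKM over both times. It passed the limit of 1 RPKM only through WT libraries, so its rise, counted above, adds no support of its own. Tfam, which packages mitochondrial DNA, rose by 0.38 at 4 h and by 0.23 at 8 h. In HEA 1 rose and 2 fell at 4 h, or 2 and 2 with cyclic loess, and 2 rose and 4 fell at 8 h, all below the shares of all tested genes (17.7% and 25.5% at 4 h, 20.2% and 27.5% at 8 h). Gabpb2, another GABP subunit, was among those that fell at 8 h, with -0.77. In RA 0 rose at either time, and 2 fell at 4 h and 0 at 8 h.

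Of 27 genes of the citric acid cycle and pyruvate use, 4 rose and 2 fell in WT at 4 h, and 1 rose and 2 fell at 8 h, or 7 and 2, and 3 and 1, with median centring. These are 14.8% and 7.41% of the list at 4 h, beside 11.6% and 14.4% of all tested genes, and 3.70% and 7.41% at 8 h, beside 15.2% and 20.1%. Their median differences were 0.12 and -0.06. Without WT 4 h replicate 3, 0 rose and 1 fell at 4 h. At 8 h Dlst, part of the 2-oxoglutarate dehydrogenase complex, rose by 0.15, and Pdk4 (-1.23) and Pdk3 (-0.42), kinases that restrain pyruvate dehydrogenase, fell. In HEA 5 rose and 8 fell at 4 h, and 8 rose and 8 fell at 8 h, or 8 and 6, and 8 and 5, with cyclic loess. These are 18.5% and 29.6% at 4 h and 29.6% and 29.6% at 8 h, beside 17.7% and 25.5%, and 20.2% and 27.5%, of all tested genes. Pcx, pyruvate carboxylase, rose by 1.59 and Pdp2, a pyruvate dehydrogenase phosphatase, fell by 1.00 at 8 h. In RA 0 rose and 1 fell at 4 h, and 2 rose and 1 fell at 8 h. Of 7 measured subunit genes outside the name pattern, among them Cox4i1, Cyc1 and Ndufab1, 1 fell in WT at 8 h and in HEA at both times, in each case Atpif1, the inhibitor of ATP synthase (-0.25 in WT at 8 h), and 0 rose. With voom 0 of the 7 fell in all 3 of these comparisons, and with median centring 0 fell in WT at 8 h or in HEA at 4 h. In RA 0 of the 7 rose or fell at either time. Subunit genes of the mitochondrial DNA were not analysed here.

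The authors' deposited table of comparisons with EV gives adjusted p-values for 76 or 77 of the members. By the authors' deposited table, 1 member was higher and 0 lower in WT at 4 h (7.84% and 9.2% of all genes there), and 1 higher and 1 lower at 8 h (15.6% and 17.0%). For HEA the authors' deposited table had 1 higher and 1 lower at 4 h (16.8% and 16.2%), and 7 higher and 3 lower at 8 h (24.5% and 25.3%). For RA it had 0 at 4 h (5.36% of all genes, either direction) and 0 at 8 h (15.8%). In the authors' deposited table Atp5sl was higher in WT by 0.76 at 4 h and 0.77 at 8 h, Ndufv3 was lower in WT by -0.45 at 8 h, and Ndufb10 was higher in HEA by 0.50 at 4 h and 0.64 at 8 h. Every member called there was called here in the same direction. The reverse did not hold. Of the members called here, the authors' deposited table also called 1 of 7 in WT at 4 h and 2 of 4 at 8 h. In HEA it also called 2 of 11 at 4 h and 10 of 14 at 8 h. Among those not called there were Ndufs6 in HEA at 4 h and Sdhb in HEA at 8 h, which held under every alternative here.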

How the data were processed

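Total RNA of 24 libraries (8 groups of 3) was sequenced with a stranded kit, per the labels' protocols. Build mm9, DESeq2, featureCounts 1.4.5-p1, SAMtools, TopHat and TopHat2 2.0.8 are listed, without roles, per the submitters' processing notes. Neither the strand setting nor the handling of duplicates is stated there. The authors deposited RPKM per gene and library, and tables of comparisons that hold a mean of normalised reads, a log2 fold change, a score (the test statistic) and p-values, raw and adjusted, per the file headers. The reference used for promoters, GRCm38.p6, is another build, so the files' own coordinates were not joined to it.

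Members were matched by symbol. The members and gene lists were chosen with earlier results of these data known. Genes at 1 RPKM or more in at least 3 libraries (12268 of 21671) were tested with limma 3.58.1 in R 4.3.3 (limma-trend, pseudocount 0.5, 8 group means, 16 residual degrees of freedom, no covariates). Adjusted p-values are Benjamini-Hochberg values over all tested genes within a comparison. Named genes are the largest changes in WT, the smallest p-values elsewhere (up to 4), paralog families, core subunits, the extremes of each complex and the largest changes of each list. Reads were recovered from the RPKM steps (100.0% of genes within 0.01 read of whole numbers in all libraries) and used with voom as an alternative. Other alternatives were quantile normalisation, median centring, cyclic loess, pseudocounts of 0.1 and 1, other filters, no trend, a fit of only the groups compared, a replicate block and leaving out each library. A library total covariate and leaving out 3 far libraries were chosen after seeing the data. The fit was also run on simulated reads with a single fixed spread and changes in a single group. Those reads held no shift of a whole library like that of WT 4 h replicate 3, so the run does not show how the fit handles one. The NRF1 letters given were chosen after a longer form had been searched. Values of 1 member are not reported here, though the counts include it.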

Additional observations from a re-analysis of the deposited data

How the results depend on the processing

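Of 329 counts of called members under alternatives, 258 stayed within 1.5 times the count of the fit described above and 71 did not. Counts that were 0 and stayed at 0 are among the 258. Direction was followed only for members called in that fit, leaving out the differences between the 8 h and 4 h effects. Of these calls, which lie away from 0 by their selection, 0 changed direction. Members that were not called were not followed. For members higher in WT at 4 h (7), median centring gave 19, fitting the 2 groups alone 1, the library total covariate 2 and leaving out the 3 far libraries 2; single libraries left out gave 1 to 17. For members lower (0), quantile normalisation, cyclic loess and a pseudocount of 0.1 each gave 1, and single libraries left out gave 0 to 2. At 8 h the count higher (1) became 4 with quantile normalisation, 5 with median centring, 4 with cyclic loess, 2 with a pseudocount of 0.1, 3 with voom, 2 with the covariate and 3 without the far libraries, and was 1 to 3 over single libraries. The count lower (3) became 7 with quantile normalisation and was 1 to 3 over single libraries.

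For HEA against EV at 4 h (11), fitting the groups alone and voom each gave 7, and single libraries left out gave 5 to 11. At 8 h (14), quantile normalisation gave 22, cyclic loess 23 and the groups alone 22, and single libraries 9 to 11. For RA (0), quantile normalisation gave 1 at 4 h (Ndufv2) and 1 at 8 h, and the groups alone gave 2 at 8 h (Cox7a1 and Sdhc). For WT against HEA at 4 h (35), quantile normalisation gave 22, cyclic loess 21, the groups alone 16 and voom 23, and single libraries 15 to 41. For WT against RA at 4 h (8), median centring gave 15, cyclic loess 5, the groups alone 3, voom 13 and the covariate 5, and single libraries 3 to 13. At 8 h (7), quantile normalisation gave 16 and cyclic loess 15, and single libraries 4 to 8. For 8 h against 4 h in WT (3), median centring gave 5, and the groups alone, the covariate and leaving out the far libraries gave 0, with 0 to 7 over single libraries. In HEA (1), no filter, no trend, the groups alone and voom gave 0, and leaving out the far libraries gave 2, with 0 to 1 over single libraries. The cause of these shifts was not tested.

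Replicate numbers did not pair the libraries: 30 of 84 same-numbered pairs correlated above 0.1 in their deviations from group means (median 0.0232, against -0.0103 for other pairs), and 9 of 24 libraries correlated best with their own number. With the replicate block the counts were 7 and 0 (WT at 4 h), 1 and 2 (WT at 8 h), 10 and 13 (HEA at 4 and 8 h), 32 and 17 (WT against HEA), 8 and 7 (WT against RA), 3 (8 h against 4 h in WT) and 0 (the same in HEA). With 3 libraries a group, the 95% intervals of differences between groups reached 0.17 to each side at the median. Over the members this reach ran from 0.086 to 0.90. A difference smaller than a member's own reach could not be told from 0. The intervals are not adjusted for the number of genes.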

Other observations

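The level of Myc itself moved beside the members. Its RPKM, which counts reads of the cells' own gene and any reads of the transgene that map to it, was at a mean of 57.2 for EV at 4 h, 40.9 for WT, 55.7 for HEA and 60.3 for RA. After 8 h the means were 58.2, 38.8, 49.5 and 63.1 RPKM. In WT the libraries ranged from 29.0 to 46.9 RPKM at 4 h and from 29.3 to 47.1 at 8 h, below all EV libraries. The HEA libraries at 8 h, with 45.9 to 55.7 RPKM, also lay below those of EV at 8 h, with 56.5 to 60.15.

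Libraries other than WT 4 h replicate 3 also held the extremes of many members. In RA 4 h replicate 1, which had the highest read total, 16 of the 78 members had their lowest deviation from a group mean. In WT 8 h replicate 3 this was so for 14, and in WT 4 h replicates 1 and 2 for 11 and 10. In RA 4 h replicate 2, 9 members had their highest deviation.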
